A study of Homo sapiens with 2 samples.

Results

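The tumor necrosis factor (TNF) superfamily is made of ligands, mostly trimers held on the cell surface or released from it, and of receptors that bind them through cysteine-rich repeats. The genes were selected by a rule on their symbols that uses no measured value. They are the protein-coding genes of the GENCODE GRCh37 annotation whose symbol starts with TNFSF or TNFRSF, together with TNF, LTA, LTB, LTBR, FAS, FASLG, CD27, CD70, CD40, CD40LG, EDA2R, EDAR, NGFR and RELT. This gave 47 members, 18 ligands and 29 receptors, of 57736 genes in the table. RNA-Seq was analyzed from 2 libraries of A1847, a human epithelial ovarian cancer cell line. One came from parental control cells, in which CARM1 is wild type, and the other from a single CARM1 KO clone made with a lentiviral CRISPR vector. CARM1 is an arginine methyltransferase that acts on histones and on chromatin proteins. With 1 library per condition no difference has a replicate check, and features of that clone cannot be told apart from loss of CARM1. The study compared these libraries to find genes whose expression depends on CARM1.

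Receptors of this superfamily fall into 3 broad kinds. Death receptors carry a death domain in the cell, through which they recruit the adaptors FADD or TRADD and can start caspase-8 dependent apoptosis. Other receptors bind TRAF adaptors directly and lead to NF-kB and JNK signaling, which favors survival and inflammation. Decoy receptors bind ligand but lack a working intracellular domain or are secreted. Epithelial tumors often express the receptors, while many of the ligands are products of activated lymphocytes and myeloid cells.

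The libraries held 30741953 reads in the control and 32300391 in the CARM1 KO library. CARM1 itself had 975 reads in the control and 380 in the CARM1 KO library, 2.63-fold lower after scaling (95% interval 2.33 to 2.97). All fold changes are ratios of counts scaled by edgeR's TMM method, and their exact binomial intervals cover counting error only. A gene was counted as higher or lower where it had at least 10 reads in both libraries together and differed more than 3-fold. This is the fold threshold of the study, which also required an FDR under 0.05 from edgeR, not applied in this count. Of 12 leukocyte markers, 4 had 0 reads in both libraries, among them CD3D and CD3E. PTPRC (CD45), which marks leukocytes in general, had 6 reads in the control and 0 in the CARM1 KO library. The leukocyte list summed to 13.4 RPM (reads scaled to library size) in the control and to 52.6 RPM in the CARM1 KO library, and most of that came from the lysosomal gene CD68. Of 9 epithelial markers, 7 had at least 10 reads. KRT7, KRT8, PAX8, EPCAM and MSLN were higher in CARM1 KO cells, and KRT18 was higher by less than 3-fold. KRT7, KRT8 and KRT18 were abundant in both libraries. By contrast, KRT19 went from 45 reads to 0 and WT1 from 8 reads to 1. MUC16 was at 0 reads in parental and 1 read in CARM1 KO cells. Of 6 fibroblast markers, 4 were lower in CARM1 KO cells and the list summed to 1008 RPM in the control and 21.5 RPM in the CARM1 KO library. COL1A2 and PDGFRA made up most of that sum, COL1A1 was higher, and the part of these shifts in the results below was not tested. In bulk RNA, fewer cells with a transcript and less transcript per cell cannot be told apart.

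Promoters of 4 members are shown because these genes moved to opposite sides and stand for different roles. TNF, TNFRSF9 (4-1BB) and TNFRSF6B (the decoy DcR3) were higher in CARM1 KO cells and EDA2R was lower, with the values given further on. The sequences are the 250 bases before the RefSeq start in GRCh38.p14, written 5′ to 3′ on the strand of the gene. Capitals mark matches on either strand to the kappa B consensus bound by NF-kB, to the GC box GGGCGG or to the TATA box TATAAA. TNF lies on the plus strand at chr6:31575315-31575564, TNFRSF9 on the minus strand at chr1:7940840-7941089, TNFRSF6B on the plus strand at chr20:63696402-63696651 and EDA2R on the minus strand at chrX:66639270-66639519, where the more upstream of 2 starts was taken.
TNF: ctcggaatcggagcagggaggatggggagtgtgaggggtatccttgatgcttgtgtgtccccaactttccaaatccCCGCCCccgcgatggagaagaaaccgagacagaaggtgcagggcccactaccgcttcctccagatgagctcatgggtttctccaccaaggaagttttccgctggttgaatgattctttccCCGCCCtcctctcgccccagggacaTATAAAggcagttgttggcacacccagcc
TNFRSF9: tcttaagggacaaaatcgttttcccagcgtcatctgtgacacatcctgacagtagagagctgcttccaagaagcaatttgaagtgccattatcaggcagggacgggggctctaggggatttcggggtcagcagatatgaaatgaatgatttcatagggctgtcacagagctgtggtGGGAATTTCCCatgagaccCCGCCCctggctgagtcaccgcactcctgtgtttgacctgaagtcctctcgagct
TNFRSF6B: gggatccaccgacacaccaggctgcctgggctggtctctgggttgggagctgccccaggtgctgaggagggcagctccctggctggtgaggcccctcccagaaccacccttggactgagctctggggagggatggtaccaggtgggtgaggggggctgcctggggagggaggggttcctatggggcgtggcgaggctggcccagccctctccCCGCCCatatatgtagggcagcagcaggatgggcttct
EDA2R: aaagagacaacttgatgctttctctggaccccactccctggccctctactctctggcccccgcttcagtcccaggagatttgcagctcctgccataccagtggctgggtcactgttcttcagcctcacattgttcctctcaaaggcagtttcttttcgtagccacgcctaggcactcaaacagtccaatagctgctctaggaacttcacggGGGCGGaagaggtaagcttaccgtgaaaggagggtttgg

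The TNF promoter held the TATA box at 29 to 24 bases before the start and 2 GC boxes. TNFRSF9 held overlapping kappa B matches, 1 on each strand, between 74 and 64 bases before the start, and 1 GC box. TNFRSF6B and EDA2R held 1 GC box each and no kappa B match in this window. The window of the other EDA2R start, not shown, held 6 GC boxes and no kappa B match. RefSeq promoters were found for 30 of the 47 members and for 9 of the 12 members that passed 3-fold. A kappa B match was present in 9 of these 30 genes and in 11.8% of the 27305 genes with a promoter, a GC box in 20 of 30 and in 46.2%, and a TATA box in 6 of 30 and in 13.0%. Of the 7 higher members with a promoter, 3 had a kappa B match, namely TNFRSF9, TNFRSF14 and TNFRSF19, and of the 2 lower members none had one. A match describes the letters in the window and was not tested as a binding site.

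Of the 47 members, 14 had 0 reads in both libraries, 4 had between 1 and 9 reads in all, and 29 reached 10 reads. Among these 29, 9 were higher and 3 were lower in CARM1 KO cells, 31.0% and 10.3%. Among all 18563 genes with at least 10 reads, 12.8% were higher and 11.7% were lower. The median log2 fold change of the 29 members was 0.93 against -0.03 over all these genes, and 21 of the 29 lay above no change. Members with few reads reached the minimum through the library in which they were high, so these shares describe the measured members and not the superfamily. Where the difference also had to pass an FDR under 0.05 in edgeR's exact test with an assumed coefficient of variation of 0.4, 2 members were higher and 1 was lower. Over all genes that rule gave 2.93% higher and 4.78% lower. The 3 members were TNFRSF6B, TNFRSF11B and EDA2R.

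**Figure D1:**
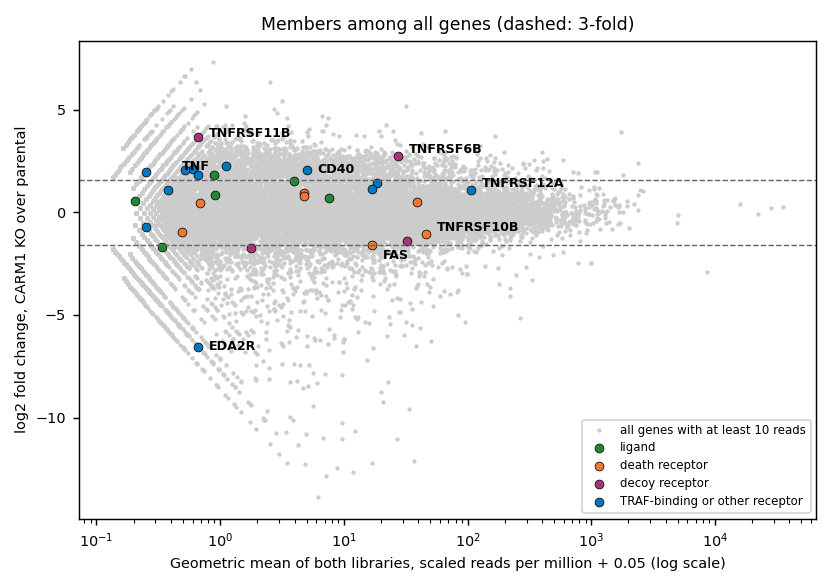
Log2 fold change of CARM1 KO over parental cells (vertical axis) against the geometric mean of both libraries in TMM-scaled RPM plus 0.05 (horizontal log axis), with every gene of at least 10 reads in grey and the 29 members colored by role. Most members lie above 0, EDA2R lies far below the 3-fold line, and TNFRSF6B stands apart among the more abundant members.

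Levels of different genes were compared as RPKM, which divides the TMM-scaled RPM by the summed exon length of the gene in kb. In parental cells the highest member was TNFRSF12A (Fn14, the receptor of TWEAK) at 41.0 RPKM, followed by TNFRSF10D at 14.9, TNFRSF10B at 13.4, TNFRSF6B at 9.27, FAS at 8.22 and TNFRSF1A at 7.70. In CARM1 KO cells TNFRSF12A stayed first at 85.9 and TNFRSF6B was next at 61.3, while TNFRSF1A was at 11.0, TNFRSF10B at 6.42, TNFRSF10D at 5.64 and FAS at 2.76. TNFRSF6B thus made up 8.28% of the summed level of the members in parental cells and 30.3% in CARM1 KO cells. Ligands made up 5.34% and 5.81%. The superfamily took 0.0327% of all reads of the control library and 0.0436% of the CARM1 KO library.

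**Figure D2:**
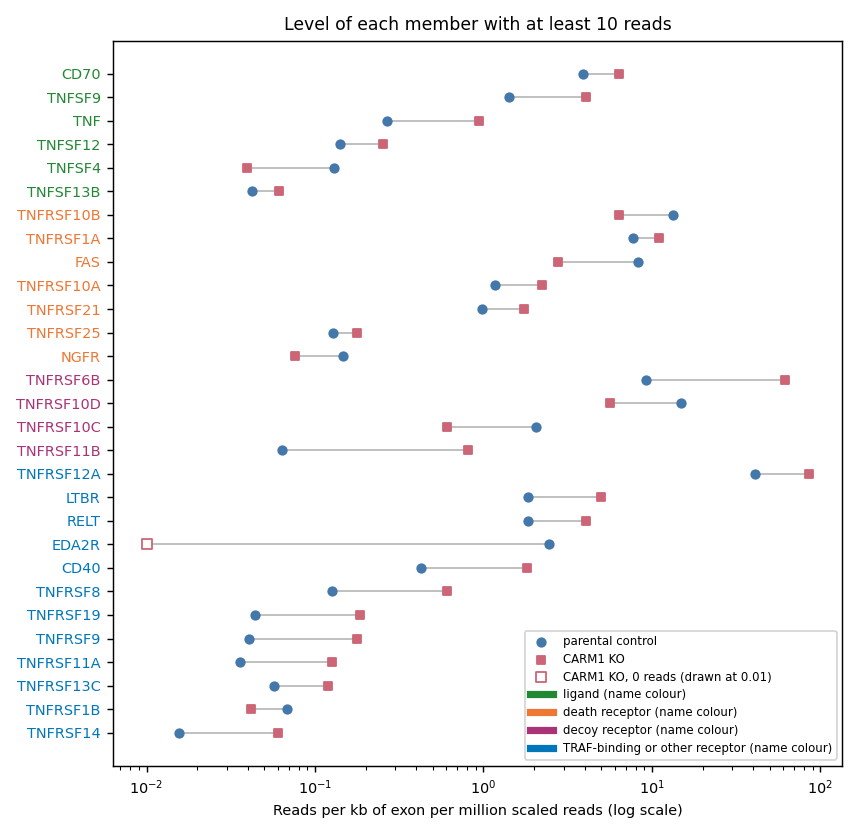
Level of each of the 29 members with at least 10 reads in parental control (circles) and CARM1 KO (squares) cells, in TMM-scaled RPKM on a log axis, with 1 library each. TNFRSF12A is the highest member in both libraries, TNFRSF6B moves from 9.27 to 61.3, and EDA2R moves from 2.43 to 0 (open square).

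Ligands were scarce in both libraries. FASLG, CD40LG, LTA, TNFSF8, TNFSF11 (RANKL), TNFSF13 (APRIL), TNFSF18 and the readthrough gene TNFSF12-TNFSF13 had 0 reads in each, which allows up to 3 reads. LTB had 2 reads in the control and 0 in the CARM1 KO library, TNFSF15 had 5 and 0, TNFSF14 (LIGHT) had 4 and 2, and TNFSF10 (TRAIL, the ligand of the death receptors DR4 and DR5) had 1 and 6. None of these 4 reached 10 reads. TNFSF13B (BAFF, a B cell survival factor) had 4 and 6 reads, and its interval from 0.347 to 7.06 fold was too wide to show a difference in either direction.

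The ligands with the most reads belong to the costimulatory branch. CD70, the ligand of CD27, had 185 reads in the control and 310 in the CARM1 KO library, a 1.64-fold higher level (95% interval 1.36 to 1.97). TNFSF9 (4-1BB ligand), which costimulates T cells, had 72 and 211 reads and was 2.86-fold higher (2.18 to 3.79), under the threshold. CD70 and TNFSF9 lie near each other on chromosome 19 and both were higher, whereas CD27, the receptor of CD70, had 0 reads in both libraries. TNFRSF9, the receptor of TNFSF9, is described with the other TRAF-binding receptors.

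TNF, the founding inflammatory cytokine of the family, rose from 14 to 50 reads, 3.49-fold (95% interval 1.90 to 6.83). Its level remained low in both libraries, at 0.268 and 0.935 RPKM. TNF was the only ligand counted as higher, and TNFSF4 (OX40 ligand), with 16 and 5 reads, was the only one counted as lower, at 3.28-fold (1.15 to 11.4). TNFSF12 (TWEAK), which binds the abundant receptor Fn14, had 20 and 37 reads, 1.81-fold higher (1.02 to 3.29). The intervals of TNF, TNFSF4 and TNFSF12 each reach under 3-fold, so counting error alone could move TNF or TNFSF4 under the threshold.

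The 7 death receptors with reads all differed by less than 3-fold, and they divided by direction. FAS, the receptor of Fas ligand, had 912 reads in the control and 313 in the CARM1 KO library, 2.98-fold lower (95% interval 2.62 to 3.40). TNFRSF10B (DR5), a receptor of TRAIL, had 2090 and 1025 reads and was 2.09-fold lower (1.94 to 2.25). FAS lay just under the threshold, with an interval on both sides of it.

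The other TRAIL death receptor, TNFRSF10A (DR4), went the opposite way, from 106 to 207 reads, 1.91-fold higher (95% interval 1.50 to 2.43). TNFRSF21 (DR6) had 110 and 199 reads, 1.77-fold higher (1.39 to 2.25). TNFRSF1A (TNFR1, the main receptor of TNF) had 1008 and 1470 reads, 1.42-fold higher (1.31 to 1.54). These 3 intervals did not include no change, with no replicate to set the differences against.

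TNFRSF25 (DR3) had 17 and 24 reads and NGFR (the p75 neurotrophin receptor) had 19 and 10 reads. The interval of TNFRSF25 ran from 0.710 to 2.73 fold and that of NGFR from 0.214 to 1.16 fold, so no difference was detectable at this depth. EDAR, the receptor of ectodysplasin in skin appendages, had 0 reads in both libraries. Its ligand gene EDA, which falls outside the naming rule, had 19 reads in the control and 41 in the CARM1 KO library.

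**Figure D3:**
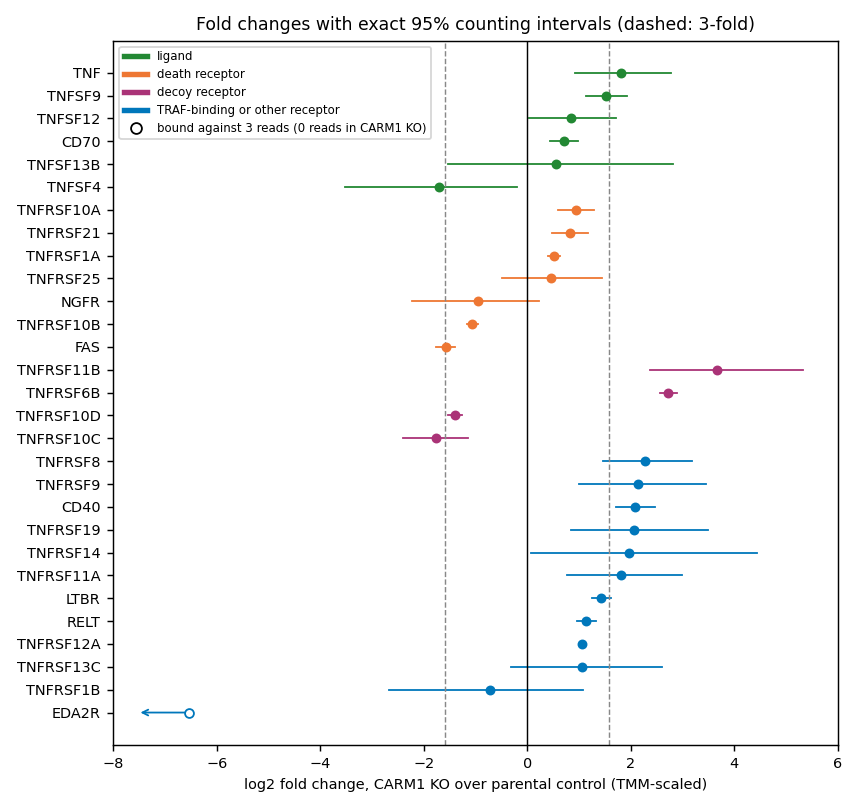
Log2 fold change of CARM1 KO over parental cells for the 29 members with at least 10 reads, grouped by role, with exact 95% binomial intervals that cover counting error and dashed lines at 3-fold. Decoy receptors lie on both outer sides, the points of the death receptors lie within the dashed lines, and EDA2R is drawn as a bound because it had 0 reads in CARM1 KO cells.

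Of the 4 decoy receptors, 2 were higher, 1 was lower and 1 lay within 3-fold. Among all genes with at least 10 reads, 12.8% were higher and 11.7% were lower. A class of 4 genes is too small to set against these shares. TNFRSF6B (DcR3), a secreted protein that captures Fas ligand, LIGHT and TL1A, had 329 reads in the control and 2230 in the CARM1 KO library, 6.62-fold higher (95% interval 5.89 to 7.46). TNFRSF11B (osteoprotegerin), a secreted decoy for RANKL that also binds TRAIL, had 5 and 65 reads, 12.7-fold higher (5.17 to 40.4). Both intervals lay wholly past 3-fold. Of the ligands these decoys bind, Fas ligand and RANKL had 0 reads in both libraries. LIGHT, TL1A (TNFSF15) and TRAIL had some reads, each under 10 in both libraries together.

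TNFRSF6B overlaps the readthrough gene RTEL1-TNFRSF6B, which joins it to its neighbor RTEL1 on chromosome 20, and RSEM divides reads between them. RTEL1-TNFRSF6B had 391 and 710 reads and RTEL1 had 425 and 717 reads, 1.77-fold and 1.65-fold higher. The counts of TNFRSF6B and the readthrough gene together rose from 720 to 2940, 3.99-fold (95% interval 3.67 to 4.33). With RTEL1 added the sum rose from 1145 to 3657, 3.12-fold (2.92 to 3.34). Each of these sums was higher in CARM1 KO cells, by a smaller factor than TNFRSF6B alone.

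The membrane decoys for TRAIL moved the other way. TNFRSF10C (DcR1) had 99 reads in the control and 30 in the CARM1 KO library, 3.38-fold lower (95% interval 2.23 to 5.27). TNFRSF10D (DcR2) had 1635 and 636 reads, 2.63-fold lower (2.40 to 2.89), under the threshold. Together these decoys were 2.67-fold lower (2.44 to 2.92), while the TRAIL death receptors together were 1.82-fold lower (1.70 to 1.96). Decoys made up 53.7% of the summed level of the 4 TRAIL receptors, per kb, in parental and 42.0% in CARM1 KO cells.

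The 4 TRAIL receptor genes lie side by side on chromosome 8 of GRCh37, from 22877646 for the first base of TNFRSF10B to 23082615 for the last base of TNFRSF10A. TNFRSF10B, TNFRSF10C and TNFRSF10D were lower and TNFRSF10A, at the far end, was higher. These genes are similar in sequence, so the division of reads among them is uncertain.

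Among the receptors that bind TRAF adaptors or have other modes of signaling, 6 were higher and 1 was lower of 12 with at least 10 reads, beside 12.8% and 11.7% of all genes. TNFRSF9, TNFRSF14 and TNFRSF19 had under 10 reads in the control and reached the minimum only through the CARM1 KO library. The count of higher receptors is thus partly set by that minimum. At the assumed coefficient of variation of 0.4 none of the 6 met the FDR criterion and EDA2R did. CD40, through which T cells activate antigen-presenting cells and which many carcinomas carry, had 75 reads in the control and 326 in the CARM1 KO library, 4.25-fold higher (95% interval 3.29 to 5.53). It was the only receptor of this kind whose interval lay wholly above 3-fold. Its ligand CD40LG had 0 reads in both libraries.

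TNFRSF8 (CD30), known from Hodgkin lymphoma, had 15 and 74 reads, 4.82-fold higher (95% interval 2.74 to 9.04). TNFRSF9 (4-1BB), a T cell costimulatory receptor, had 8 and 36 reads, 4.40-fold higher (2.01 to 10.9). TNFRSF19 (TROY), with 7 and 30 reads, was 4.19-fold higher (1.80 to 11.3). All were low in both libraries, with at most 0.609 RPKM, reached by TNFRSF8 in CARM1 KO cells.

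TNFRSF11A (RANK, the receptor of RANKL) had 10 reads in the control and 36 in the CARM1 KO library, 3.52-fold higher (95% interval 1.71 to 7.94). TNFRSF14 (HVEM) had 3 and 12 reads, a ratio of 3.91 whose interval ran from 1.05 to 21.6. TNFRSF13C (the BAFF receptor) had 7 and 15 reads and TNFRSF1B (TNFR2) had 8 and 5 reads, and the intervals of both included no change. TNFRSF4, TNFRSF13B, TNFRSF17, TNFRSF18 and CD27, receptors of lymphocytes, had 0 reads in both libraries.

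The abundant receptors of this kind were higher by smaller amounts. TNFRSF12A (Fn14) had 2300 reads in the control and 4931 in the CARM1 KO library, 2.09-fold higher (95% interval 1.99 to 2.20). LTBR, the lymphotoxin beta receptor, had 353 and 973 reads, 2.69-fold higher (2.38 to 3.05). RELT had 354 and 798 reads, 2.20-fold higher (1.94 to 2.50). None of the 3 passed the threshold.

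EDA2R (XEDAR), which binds the A2 form of ectodysplasin, gave the largest fold change of the superfamily. It had 274 reads in the control and 0 in the CARM1 KO library. With that 0 set to 3 reads it was 93.5-fold lower, and its exact 95% interval began at 75.5-fold. The gene spans chrX:65815479-65859140 in GRCh37, on the minus strand. LAS1L, MSN and YIPF6, among the nearest protein-coding genes with at least 50 reads, each differed by less than 3-fold.

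The position of the other members that passed 3-fold was examined in the same way, with the 2 nearest protein-coding genes on each side that had at least 50 reads. Of the 48 neighbors of the 12 members, 26 moved in the same direction as the member, 5 passed 3-fold the same way and 5 passed it the other way. TNFRSF11B had the most neighbors past 3-fold the same way, as SAMD12, EXT1 and CCN3 on chromosome 8 were 7.43-fold, 3.52-fold and 3.51-fold higher. Beside TNFSF4 on chromosome 1 all 4 neighbors were lower, with ANKRD45 at 26.4-fold. Beside TNFRSF11A, PIGN and ZCCHC2 were 4.25-fold and 8.56-fold lower, against the direction of the member. CD40, TNF, TNFRSF6B, TNFRSF10C and TNFRSF19 had no neighbor past 3-fold, where those of TNFRSF6B include the genes that overlap it and those of TNFRSF10C are mostly TRAIL receptors.

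**Figure D4:**
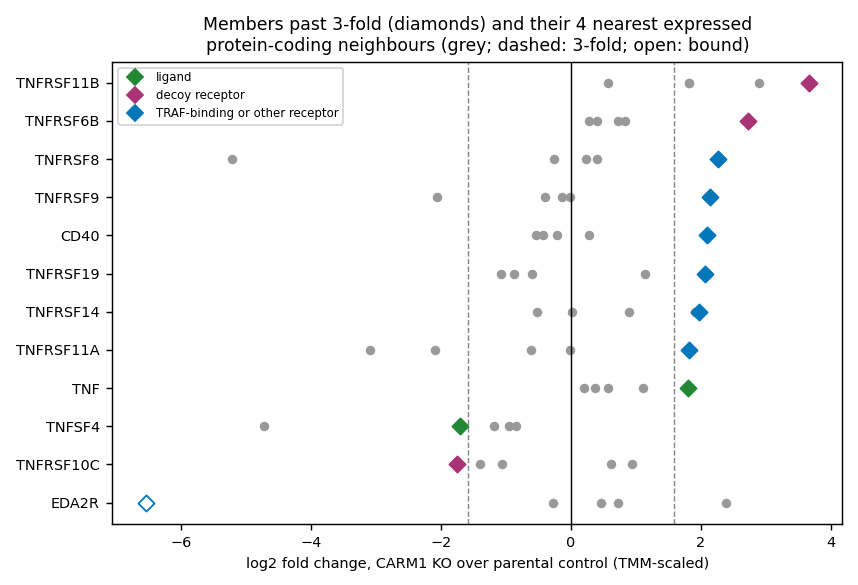
Log2 fold change of CARM1 KO over parental cells for the 12 members past 3-fold (diamonds colored by role, open for the bound of EDA2R) and for the 4 nearest expressed protein-coding genes of each (grey points), with dashed lines at 3-fold. Neighbors of TNFRSF11B lie on the same side as the member, and those of CD40 lie close to 0.

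Downstream of the receptors, most signaling genes lay within 3-fold. Of 52 genes for adaptors, kinases, ubiquitin enzymes and NF-kB subunits, 50 had at least 10 reads, 3 were higher and 1 was lower, beside 12.8% and 11.7% of all genes, and the median log2 fold change was 0.13. The adaptor TRADD had 73 and 131 reads, 1.75-fold higher (95% interval 1.31 to 2.37). FADD had 1013 and 997 reads, and its interval from 0.880 to 1.05 fold included no change. RIPK1, the kinase at TNFR1, had 1301 and 1969 reads, 1.48-fold higher (1.38 to 1.59). TRAF2 had 517 and 831 reads, 1.57-fold higher (1.40 to 1.76).

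At the caspase branch, CASP8 had 1485 reads in the control and 1414 in the CARM1 KO library, 1.08-fold lower with an interval that just included no change. CFLAR, which encodes the caspase-8 inhibitor FLIP, had 2159 and 3251 reads, 1.47-fold higher (95% interval 1.39 to 1.55). RELA had 611 and 882 reads, 1.41-fold higher (1.27 to 1.57). NFKB1 had 2092 and 1874 reads, 1.14-fold lower (1.07 to 1.22). RIPK3, the kinase of necroptosis, had 0 reads in both libraries.

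The signaling genes past the threshold were TNFAIP3, BIRC3, MAP3K5 and TRAF5. TNFAIP3 (A20), a ubiquitin-editing enzyme that restrains NF-kB, had 51 reads in the control and 292 in the CARM1 KO library, 5.59-fold higher (95% interval 4.14 to 7.69). BIRC3 (cIAP2), a ubiquitin ligase at TNF receptors, had 95 and 520 reads, 5.35-fold higher (4.29 to 6.73). MAP3K5 (ASK1), a stress kinase, had 129 and 432 reads, 3.27-fold higher (2.68 to 4.01). TRAF5, an adaptor of CD40 and LTBR among others, had 592 and 170 reads, 3.57-fold lower (3.0 to 4.25). None of these 4 met the FDR criterion at the assumed coefficient of variation of 0.4.

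Among 35 genes known as NF-kB targets, 29 had at least 10 reads, of which 9 were higher and 3 were lower in CARM1 KO cells, where 12.8% and 11.7% of all genes were. At the assumed coefficient of variation of 0.4, 2 were higher (IL1B and ICAM1) and 1 was lower (PTGS2). The median log2 fold change of the list was 0.68, against -0.03 over all genes. CXCL3 and MMP9 reached the minimum of 10 reads only through the CARM1 KO library, and CCL20 only through the control. The counts of this list are thus partly set by that minimum. TNFAIP3 and BIRC3 are on this list too. ICAM1, a leukocyte adhesion receptor, had 164 reads in the control and 1043 in the CARM1 KO library, 6.21-fold higher (95% interval 5.26 to 7.37). IL1B had 25 and 197 reads, 7.70-fold higher (5.06 to 12.2). CXCL8 had 27 and 175 reads, 6.33-fold higher (4.21 to 9.88). IL6 had 30 and 136 reads, 4.43-fold higher (2.96 to 6.81).

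CD83 had 132 reads in the control and 581 in the CARM1 KO library, 4.30-fold higher (95% interval 3.55 to 5.23). CXCL3 had 2 and 22 reads and MMP9 had 2 and 17 reads, with ratios of 10.7 and 8.30 and intervals that began at 2.64 and 1.97. NFKBIA, which encodes the inhibitor I-kappa-B-alpha, had 918 and 1689 reads, 1.80-fold higher (1.66 to 1.95), under the threshold. The list did not move as a block. PTGS2 (cyclooxygenase-2) fell from 989 to 53 reads, 19.1-fold (14.5 to 25.7), and CSF1 had 334 and 75 reads, 4.56-fold lower (3.54 to 5.94). CCL20 had 12 reads in the control and 0 in the CARM1 KO library, 4.10-fold lower with that 0 set to 3 reads. Its exact 95% interval began at 2.84-fold, so counting error alone could move CCL20 under the threshold.

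**Figure D5:**
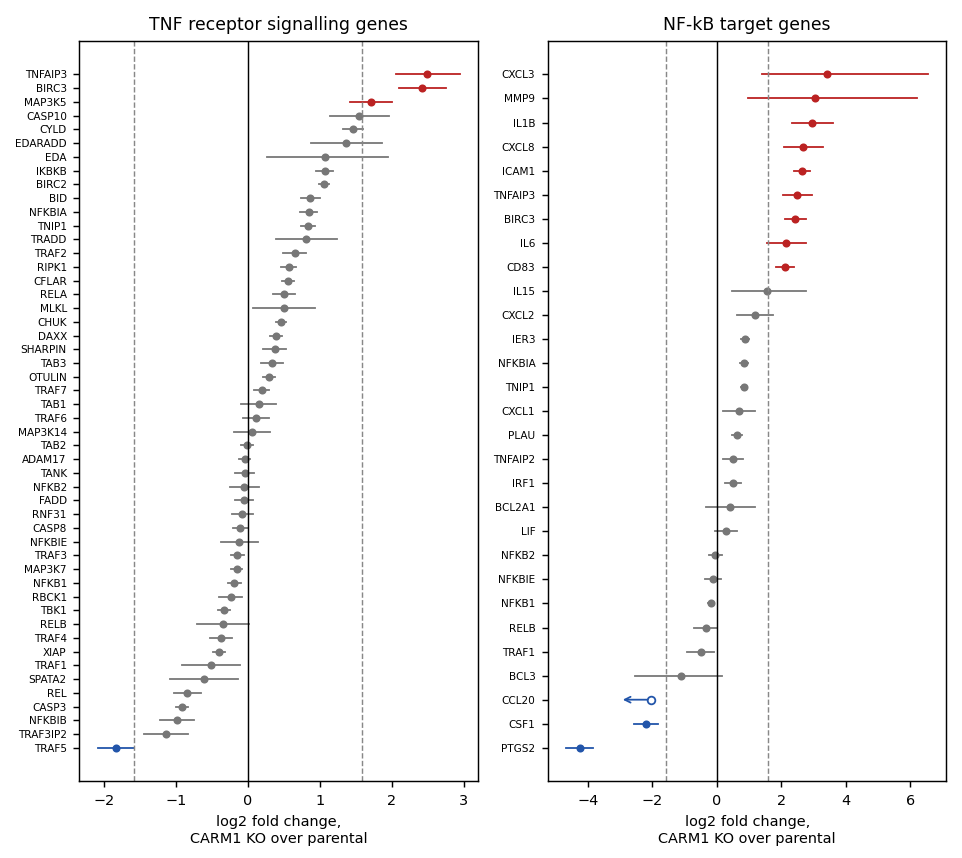
Log2 fold change of CARM1 KO over parental cells for the TNF receptor signaling genes (left) and the NF-kB target genes (right) with at least 10 reads, with exact 95% binomial intervals and dashed lines at 3-fold. Red marks genes more than 3-fold higher, blue those more than 3-fold lower and grey the rest, and the open point of CCL20 is a bound. Most signaling genes lie within the dashed lines, and 9 NF-kB targets lie beyond the upper line.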

How the data were processed

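RNA was extracted from parental control and CARM1 KO A1847 cells, and 75 bp paired-end libraries were made by the authors with a ScriptSeq kit. Alignment by the authors was to hg19 with bowtie2, and the gene counts they deposited are RSEM estimates in whole numbers, not normalized. The RSEM version is 1.2.3 in the submitters' processing notes and differs from that in the paper. The Ensembl release and the strand setting are not given in the sources used here. RSEM divides reads between similar or overlapping genes.

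Identifiers were matched to GENCODE release 44 lifted to GRCh37 for 55501 of 57736 genes. Counts were scaled by TMM in edgeR 4.0.16 under R 4.3.3. Folds have exact Clopper-Pearson 95% intervals (scipy 1.17.1), and a count of 0 was set to 3 reads to give a fold called a bound. The exact interval can begin at a smaller fold than this bound. No test with a spread estimated from the data was made, since neither group has a replicate. The exact test of edgeR with assumed coefficients of variation of 0.12 and 0.4 served as an alternative, as did DESeq2 1.42.0 size factors, upper-quartile scaling, library size, other minimums of reads, a prior count of 2 and other thresholds. Steps were tested on simulated counts.

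Every member is named. From the signaling and NF-kB lists, the genes past 3-fold and 10 anchors (TRADD, FADD, RIPK1, TRAF2, CASP8, CFLAR, RELA, NFKB1, NFKBIA and TNFAIP3) are named. IKBKG, CCL5, SOD2 and PECAM1 were not matched. The endothelial markers had at most 2 reads. Members and lists were chosen with earlier results of these data known, and the summed TNFRSF6B counts were added after values were seen. Some results are not reported here. Promoters are from RefSeq, where 17 members had no entry.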

Additional observations from a re-analysis of the deposited data

How the results depend on the processing

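The counts moved with the threshold and with the assumed spread. At 2-fold, 14 members were higher and 6 lower, 9 signaling genes were higher and 2 lower, and 3631 genes of the whole table were higher and 3537 lower, against 2372 and 2175 at 3-fold. With the counting interval wholly past 3-fold, 3 members were higher (CD40, TNFRSF6B and TNFRSF11B) and 1 was lower (EDA2R), with 1292 and 1234 genes in all. With at least 50 reads, 5 members were higher and 2 lower, with 1649 genes higher and 1219 lower in all. An assumed coefficient of variation of 0.4 in edgeR's exact test, which widens the spread by construction, left 2 members higher and 1 lower, 0 signaling genes in either direction, 2 NF-kB targets higher and 1 lower, and 543 genes higher and 888 lower in all. At 0.12, 8 members were higher and 2 lower.

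Other scalings shifted all genes by at most 0.0684 on the log2 scale. Under library size alone, from all or from protein-coding genes, 4 members were lower, the added member being FAS. The median log2 fold change of the members ranged from 0.85 to 0.97 and CARM1 stayed lower. Summing TNFRSF6B with its readthrough gene gave a log2 fold change of 2.0, and with RTEL1 also 1.64, against 2.73. The other 145 values of single genes under these alternatives stayed within counting error. No paired analysis was possible because neither condition has replicate libraries, and for the same reason leaving out a replicate was not possible.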
